A study of Homo sapiens with 10 samples.

Results

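BRG1 and BRM, encoded by SMARCA4 and SMARCA2, are the alternative ATPases of SWI/SNF, a family of protein complexes that remodel chromatin. The RNA of these 2 genes was followed in C33A cells after each ATPase had been put back from a plasmid, to see how much RNA each plasmid added, what the cells made on their own, and whether the level of one gene moved with the plasmid of the other. The members were chosen by identifier, as SMARCA4 (ENSG00000127616) and SMARCA2 (ENSG00000080503) among the 63152 genes of each expression table, and, in the splicing tables, as every listed exon that lies inside either gene. Of 5191 exon events listed in 8 splicing tables, 7 fell in SMARCA4, all at 2 exons, and 0 fell in SMARCA2.

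C33A is a cervical carcinoma line that the study describes as deficient in SWI/SNF. All cells were transiently transfected and harvested after 48 h, and 2 libraries of polyadenylated RNA were made for each of 5 groups. The control cells received the empty vector pOPRSVI, BRG1-wt cells received pBJ5-BRG1, BRG1-mut cells received pBJ5-BRG1-K798R, BRM-wt cells received pCG-hBrm, and BRM-mut cells received pCG-hBrm-K798R. The control vector therefore had another backbone than the ATPase plasmids, the BRG1 and BRM plasmids also differed in backbone, and no step that selected transfected cells is described, so each library is an average over cells with and without plasmid. Reads from a plasmid and from the chromosomal gene count for the same gene and cannot be told apart in these tables. The study describes duplicates of transfected cells but not whether they came from separate cultures or days, so p-values measure the spread between these libraries, which may be technical.

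Each SWI/SNF complex carries either BRG1 or BRM as its motor, which uses the energy of ATP to move or evict nucleosomes. The other subunits, such as the core subunits SMARCC1 and SMARCB1 and the ARID proteins, build the complex and guide it to chromatin. Loss of both ATPases is known from several tumour lines, and in such lines re-expression from plasmids has long been used to study SWI/SNF function.

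The substitution named for both mutants, K798R, replaces a lysine by arginine, and the study places the mutation in the ATPase domain. It is taken here to be the lysine of the ATP-binding site, which was not checked against the plasmids. The exons that hold the codon of that lysine in the reference genome are shown for this reason, and because they show how alike the genes are in sequence. Both are 164 bases long and are given 5′ to 3′ on the plus strand of GRCh37 with the lysine codon in capitals.
SMARCA4, exon 16 of 35, chr19:11123625-11123788: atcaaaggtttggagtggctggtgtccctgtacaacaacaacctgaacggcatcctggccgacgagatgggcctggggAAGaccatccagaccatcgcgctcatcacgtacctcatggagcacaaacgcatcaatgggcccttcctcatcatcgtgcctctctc
SMARCA2, exon 15 of 34, chr9:2081832-2081995: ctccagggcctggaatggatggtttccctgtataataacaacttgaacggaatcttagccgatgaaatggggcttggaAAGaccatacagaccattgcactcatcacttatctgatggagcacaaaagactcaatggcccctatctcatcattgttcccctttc
The capitals are codon 785 of the SMARCA4 coding sequence and codon 755 of the SMARCA2 coding sequence in the reference transcripts (MANE Select) of the annotation. Codon 798 encodes glutamate in the former and serine in the latter, so the number in the plasmid names is not a codon number of these transcripts, and the numbering used is not given in the sources used here. The exons carry the same base at 129 of 164 positions (78.7%), with 12 bases in their longest identical stretch. Over all annotated transcripts of both genes, 55 of SMARCA4 and 72 of SMARCA2, the longest stretch in common was 26 bases.

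The tables hold 1 mean normalised count per gene over 4 libraries, and the reads of each library were solved from the 4 tables together. Whole read numbers for the 10 libraries were found that return all 4 tabulated means for each of the 63152 genes. The libraries held 30786236 to 43365343 reads on genes. The 2 libraries of a group are called a and b by depth, since the solution does not say which is replicate 1. Normalised read counts below are reads divided by the size factor of the library over all 10.

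Control cells had SMARCA4 RNA but almost no SMARCA2 RNA. SMARCA4 was counted with 4235 reads in control library a and 2497 in library b, or 4106 and 2589 normalised reads (mean 3347 ± 1073, SD, n = 2). SMARCA2 was counted with 14 reads in control library a (95% Poisson interval 7.65 to 23.5) and 13 in library b (6.92 to 22.2), or 13.6 and 13.5 normalised reads. The intervals cover counting error only. By rank, SMARCA4 was the 2212th and 3558th most counted gene in the control libraries, and SMARCA2 was the 15510th and 15464th. Per kb of annotated exons (15581 bases for SMARCA4 and 19075 for SMARCA2), the level of SMARCA4 was 370 times that of SMARCA2 in control library a and 235 times in library b. SMARCA4 RNA was thus counted in a line that the study describes as deficient in BRG1 and BRM. Protein was not measured in these files, while the study examined both proteins by immunoblot.

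**Figure D1:**
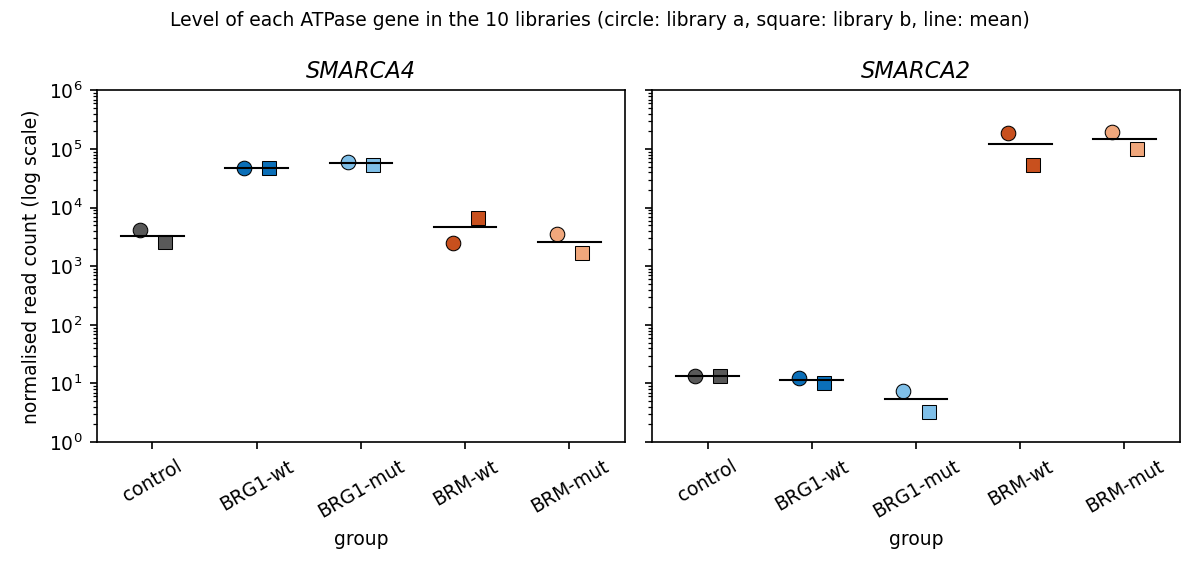
Normalised read count on a log axis for SMARCA4 (left) and SMARCA2 (right) in the 10 libraries, with circles for library a, squares for library b and a line at the mean of each group. SMARCA4 stood at 47390 or above in the 4 BRG1 libraries and at 6725 or below in the others, and SMARCA2 stood at 53794 or above in the 4 BRM libraries and at or below 13.6 in the others.

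The count of SMARCA4 was far higher with both BRG1 plasmids, at 47390 and 48049 normalised reads in the BRG1-wt libraries (mean 47719 ± 466, SD, n = 2) and at 61027 and 53663 in the BRG1-mut libraries (57345 ± 5207, SD, n = 2). All 4 values were more than 10-fold above the higher control library. The ratio of means was 14.3 for BRG1-wt and 17.1 for BRG1-mut. SMARCA4 reads made up 0.127% and 0.132% of all reads in the BRG1-wt libraries and 0.161% and 0.144% in the BRG1-mut libraries, which placed the gene between rank 29 and rank 40.

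In the limma fit over the 4 libraries of each comparison, which all share the control libraries, on log2 of the normalised count plus 1, the SMARCA4 difference was 3.87 ± 0.21 (SE) for BRG1-wt, with an adjusted p of 0.0088. In that comparison 111 of 16536 genes tested passed an adjusted p of 0.05, all of them higher, which is 0.671%, and SMARCA4 had the third smallest p. By the size of the difference SMARCA4 ranked 53rd. It was called under all 11 alternatives run, with adjusted p values by limma from 1.7e-12 to 0.0388. For BRG1-mut the difference was 4.12 ± 0.24 (SE) and had the smallest p of all 16407 genes (1.36e-05), but the adjusted p by limma was 0.223. In the BRG1-mut comparison 0 genes passed (0%), 2546 had an unadjusted p under 0.05, and limma with voom weights also called 0. With 1 control library the scatter between controls leaves the fit. The gene's own spread is then that of the BRG1-mut pair alone, which the lone control is assumed to share. The spread that limma tests against then comes mostly from its trend over all genes. The difference of BRG1-mut passed in this way when control library a was left out (adjusted p by limma 1.86e-10) or control library b was (3.17e-07), and over 11 alternatives the adjusted p ran from 1.86e-10 to 0.939, the highest without BRG1-mut library a.

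With both BRM plasmids SMARCA2 was higher than control by a still larger factor. BRM-wt library a held 214220 SMARCA2 reads and library b 43748, or 191928 and 53794 normalised reads. BRM-mut library a held 222526 reads and library b 101280, or 192283 and 101695 normalised reads. The libraries of a group thus differed by 3.57-fold in BRM-wt and 1.89-fold in BRM-mut, a wider spread than that of SMARCA4 in the BRG1 libraries (1.01-fold and 1.14-fold). The lowest BRM library still stood at 53794 against 13.6 in the higher control library.

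The group means of SMARCA2 were 9084 times the control mean in BRM-wt and 10868 times in BRM-mut. SMARCA2 took 0.142% to 0.513% of all reads and ranked between 7 and 33 among all genes. On the log2 scale the difference was 12.77 ± 0.63 (SE) for BRM-wt and 13.23 ± 0.32 (SE) for BRM-mut. SMARCA2 had the smallest p and the largest difference of all genes tested in both comparisons. The adjusted p by limma was 0.00596 for BRM-mut, where SMARCA2 was the 1 gene called of 16328 (0.00612%). For BRM-wt it was 0.177, and 0 of 16421 genes passed (0%), with 395 at an unadjusted p under 0.05 and 0 with voom weights. In a fit with 1 library of a group, the gene's own spread is that of the other group alone. The spread that limma tests against then comes mostly from its trend over all genes. Such a fit leaves out the 3.57-fold difference within BRM-wt where that group is the one reduced. When BRM-wt library a was left out SMARCA2 was called at an adjusted p by limma of 0.000354, without library b at 1.39e-07, without control a at 0.000424 and without control b at 0.00126, and the fit over all 10 libraries called it at 0.001. Over 11 alternatives the adjusted p by limma ran from 1.39e-07 to 0.42 for BRM-wt and from 8.89e-08 to 0.592 for BRM-mut, the highest in each with voom weights.

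No difference in RNA between the wt and mut forms of either ATPase was called. SMARCA4 was higher in both BRG1-mut libraries than in both BRG1-wt libraries, and the difference of BRG1-wt from BRG1-mut was -0.26 ± 0.50 (SE) on the log2 scale in the fit over all 10 libraries, with a 95% interval from -1.44 to 0.92 and an adjusted p by limma of 0.991. There, 18 of 16517 genes were called (0.109%). In the fit over the 4 BRG1 libraries alone, where the scatter of the other groups does not enter, the difference was -0.23 ± 0.10 (SE), with a 95% interval from -0.47 to 0.0063 and an adjusted p by limma of 0.291. The SMARCA2 values of BRM-wt and BRM-mut overlapped, and BRM-wt differed from BRM-mut by -0.46 ± 0.61 (SE), with a 95% interval from -1.87 to 0.95 and an adjusted p by limma of 0.962, where 45 of 16517 genes were called (0.272%). The intervals over all 10 libraries include differences of more than 2-fold, while that of SMARCA4 over the 4 BRG1 libraries does not.

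Levels of the 2 genes were compared as RPKM, that is per kb of annotated exon and scaled to the depth of the library. SMARCA4 lay between 81.4 and 104 in the BRG1 libraries and SMARCA2 between 74.5 and 269 in the BRM libraries, against 4.45 and 7.15 for SMARCA4 in the control libraries. On this scale BRM-wt library b, at 74.5, was the 1 BRM library below the BRG1 libraries, and the other BRM libraries lay above all of them. The place of BRM-wt library b depends on the length used. Without division by length, its SMARCA2 share was 0.142% of reads, within the SMARCA4 range of 0.127% to 0.161% in the BRG1 libraries. The annotated exons measure 15581 bases for SMARCA4 and 19075 for SMARCA2, but the coding sequences 4941 and 4770. The lengths carried by the plasmids were not used here.

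The level of SMARCA2 after transfection of BRG1 was at the limit of the depth. It was counted with 14 reads in BRG1-wt library a and 10 in library b, which is 12.5 and 10.3 normalised reads, just below both control libraries. BRG1-mut library a held 8 reads (95% Poisson interval 3.45 to 15.8) and library b 3 (0.619 to 8.77), or 7.45 and 3.31 normalised reads, the lowest of all 10 libraries. The log2 difference of BRG1-wt from control was -0.24 ± 0.40 (SE), with an adjusted p by limma of 0.862. SMARCA2 fell under the minimum mean of 10 in the BRG1-mut comparison, and without that minimum the difference was -1.27 ± 0.54 (SE), with an adjusted p by limma of 0.44 and a 95% interval from -2.60 to 0.06. No change was called in either comparison with 2 libraries per group. Summed over both libraries, BRG1-mut held 11 SMARCA2 reads and control 27. The intervals of the counts of single BRG1-mut and control libraries overlap, which does not test a difference between the groups.

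These counts also bound how many SMARCA4 reads could have been counted for SMARCA2 through their sequence likeness. In BRG1-wt library a, 14 SMARCA2 reads stood beside 53164 SMARCA4 reads (0.0263%), and in BRG1-mut library b 3 stood beside 48609 (0.00617%). The control libraries, with far less SMARCA4, held 14 and 13 SMARCA2 reads.

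SMARCA4 in the BRM libraries scattered around the control level. BRM-wt library a had 2524 and library b 6725 normalised reads, below and above both control libraries. BRM-mut library a had 3593, between the control values, and library b had 1653, below both. The difference from control was 0.34 ± 0.54 (SE) on the log2 scale for BRM-wt (95% interval -1.07 to 1.75) and -0.42 ± 0.44 (SE) for BRM-mut (-1.57 to 0.72), with adjusted p values by limma of 1 and 0.988. Without BRM-wt library b the former was -0.37, and without BRM-mut library b the latter was 0.13, so 1 library set the direction in each. The library with most SMARCA2 reads in BRM-wt had less SMARCA4 than its partner, and in BRM-mut it had more.

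The order of the mean SMARCA4 level was thus BRG1-mut, BRG1-wt, BRM-wt (4624 ± 2971, SD, n = 2), control and BRM-mut (2623 ± 1372, SD, n = 2), and BRM-wt, control and BRM-mut overlapped. For SMARCA2 it was BRM-mut, BRM-wt, control, BRG1-wt (11.4 ± 1.52, SD, n = 2) and BRG1-mut (5.38 ± 2.93, SD, n = 2), where BRM-mut overlapped BRM-wt, and the counting intervals of control, BRG1-wt and BRG1-mut libraries overlapped.

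The scatter of SMARCA4 among the 6 libraries without a BRG1 plasmid moved with that of other genes of like GC content. The longest transcript of SMARCA4 has a GC content of 61%, above that of 90.3% of the genes compared, and SMARCA2 has 42.9%. Among 320 other genes with a GC content of 60.9% to 61.7%, the median deviation of a library from the 10-library mean was 0.21 (log2) in control a, -0.54 in control b, -1.04 in BRM-wt a, 0.72 in BRM-wt b, -0.0031 in BRM-mut a and -1.09 in BRM-mut b. The order of the 6 libraries by SMARCA4 was their order by this median. When this median was subtracted, an alternative chosen after seeing the data, SMARCA4 lay between 3517 and 5181 normalised reads in the 6 libraries, a 1.47-fold range in place of 4.07-fold. The difference from control was then 0.32 ± 0.14 (SE) for BRM-wt and -0.03 ± 0.07 (SE) for BRM-mut, neither called (adjusted p by limma 1 for both).

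With the same subtraction SMARCA4 was called in both BRG1 comparisons. The difference was 3.51 ± 0.09 (SE) for BRG1-wt, with an adjusted p by limma of 3.16e-05, and 3.26 ± 0.07 (SE) for BRG1-mut, with 8.31e-05. The order of the groups turned over, since BRG1-wt was now above BRG1-mut by 0.25 ± 0.12 (SE), which was not called (adjusted p by limma 0.756). How far GC content itself sets these differences was not tested.

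**Figure D2:**
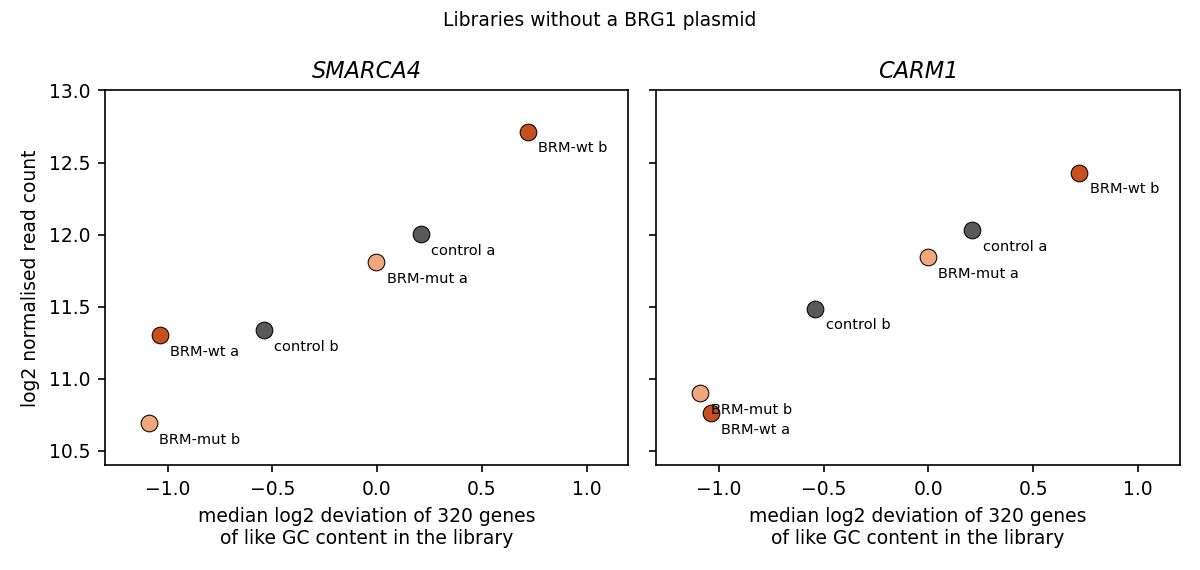
Log2 normalised read count of SMARCA4 (left) and of its neighbour CARM1 (right) in the 6 libraries without a BRG1 plasmid, against the median log2 deviation of the 320 genes of like GC content in the same library. SMARCA4 and CARM1 both stood highest in BRM-wt b (6725 and 5521 normalised reads), where the 320 genes were highest, and lowest in BRM-wt a or BRM-mut b, where these genes were lowest.

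Of the genes beside SMARCA4 on chromosome 19, some scattered in the same way and some did not. CARM1, an arginine methyltransferase gene 37857 bases away with a GC content of 61.5%, had 4191 and 2872 normalised reads in control, 1737 and 5521 in BRM-wt, and 3672 and 1914 in BRM-mut. It thus followed the pattern of SMARCA4, with the control values between those of the BRM-wt libraries. In the BRG1 libraries CARM1 lay between 3517 and 5562, and none of the comparisons called it (log2 differences of 0.15 and 0.60 with wt and mut BRG1, and -0.16 and -0.39 with wt and mut BRM). YIPF2, with a GC content of 61.5%, ranged from 60.0 to 409 over the BRM libraries. TIMM29, with a like GC content of 61.1%, varied far less, with 369 and 335 normalised reads in control, 291 and 402 in BRM-wt, and 397 and 321 in BRM-mut. TIMM29, SPC24 and KANK2 showed differences between -0.18 and 0.36, and none of these 5 genes was called in any comparison with control.

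SMARCA2 lies in a gene-poor part of chromosome 9, and of its neighbours only VLDLR and PUM3 reached the minimum count in every comparison. VLDLR, which encodes a lipoprotein receptor, had 148 and 117 normalised reads in control, 265 and 310 in BRG1-wt, 164 and 103 in BRG1-mut, 314 and 205 in BRM-wt, and 141 and 119 in BRM-mut. Both wt groups lay above both control libraries and both mut groups overlapped control. The difference was 1.11 ± 0.23 (SE) for BRG1-wt and 0.94 ± 0.36 (SE) for BRM-wt, and neither passed (adjusted p by limma 0.178 and 1). PUM3 varied between 2029 and 2970 normalised reads and was not called. DMRT2 and KCNV2 had 0 reads in all 10 libraries, DMRT1 had 0 to 5 and DMRT3 had 1 to 13. No read was counted for SMARCA2-AS1, the antisense gene inside SMARCA2, nor for the antisense gene ENSG00000266936 inside SMARCA4, while RN7SL192P, which lies inside SMARCA4 on the same strand, had 8 to 23 reads in each library, with 16 and 11 in BRG1-wt against 17 and 23 in control.

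The tables of spliced exons showed that the SMARCA4 RNA also differed in its make-up. The first listed exon is exon 27 of the reference transcript, with 99 bases or 33 codons at chr19:11144443-11144541, and the second is a 96-base exon of 32 codons at chr19:11150134-11150229, which the reference transcript lacks. Both lengths are whole numbers of codons. They are shown with 40 bases of intron on each side, 5′ to 3′ on the plus strand of GRCh37, with the exon in capitals, because they are the stretches by which the counted forms of SMARCA4 differ.
Exon 27, chr19:11144403-11144581: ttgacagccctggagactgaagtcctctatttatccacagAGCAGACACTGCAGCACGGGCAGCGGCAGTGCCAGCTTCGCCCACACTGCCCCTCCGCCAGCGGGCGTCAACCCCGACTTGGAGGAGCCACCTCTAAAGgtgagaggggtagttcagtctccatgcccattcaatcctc
96-base exon, chr19:11150094-11150269: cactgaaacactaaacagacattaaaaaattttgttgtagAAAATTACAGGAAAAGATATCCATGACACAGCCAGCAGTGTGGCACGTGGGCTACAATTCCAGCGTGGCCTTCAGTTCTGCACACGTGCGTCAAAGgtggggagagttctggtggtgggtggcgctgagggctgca
In the annotation, 13 coding transcripts join the flanking exons through the 99-base exon and 17 join them directly. For the 96-base exon the numbers are 6 and 15.

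Exon 27 was absent from most of the SMARCA4 RNA in control cells and present in most of it after transfection of either BRG1 plasmid. With a BRG1 plasmid this RNA can come from plasmid and chromosome, so the PSI of the chromosomal transcripts alone is unknown. Its PSI, the fraction of transcripts with the exon that MISO estimates, was 0.11 in control replicate 1 and 0.03 in control replicate 2. With BRG1-wt it was 0.85 in replicate 1 and 0.7 in replicate 2. With BRG1-mut it was 0.77 and 0.79. The increase over the control library of the same number was 0.705 ± 0.0495 (SD, n = 2) for BRG1-wt and 0.71 ± 0.0707 (SD, n = 2) for BRG1-mut, and every BRG1 library lay far above both control libraries. The 2 mut values fell between the 2 wt values, so the groups overlapped. All events in the tables have a Bayes factor above 10, so events with weaker evidence are not seen here, and the reads behind single PSI values are unknown.

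Exon 27 was also listed for BRM-wt replicate 2, with a PSI of 0.32 against 0.03 in control, which is 0.29 higher. It was not listed for BRM-wt replicate 1 or for BRM-mut, whose values are therefore unknown. SMARCA4 itself was not called in BRM-wt. The 96-base exon was listed in replicate 2 of both BRG1 groups, with a PSI of 0.07 in control and 0 in BRG1-wt and BRG1-mut.

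Multiplied with the mean SMARCA4 level of each group, the mean PSI splits the RNA into forms. Control held about 234 normalised reads' worth of RNA with exon 27 and 3113 without it. BRG1-wt held 36983 with it and 10737 without it, and BRG1-mut 44729 and 12616. The form with exon 27 was thus 158 and 191 times the control value, and the form without it 3.45 and 4.05 times. For BRM-wt, from replicate 2 alone and the group mean, 1480 was with and 3145 without the exon, against 100.4 and 3247 in control. These control values use the PSI of control replicate 2 alone (0.03), so they differ from those above. The BRM-wt libraries held 2524 and 6725 normalised reads, and which of them is replicate 2 is unknown, so the product may fit neither. These products are descriptions without an error, because PSI values go by replicate and counts by library and cannot be matched. Which forms came from the plasmids was not tested, as the plasmid sequences were not used here.

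**Figure D3:**
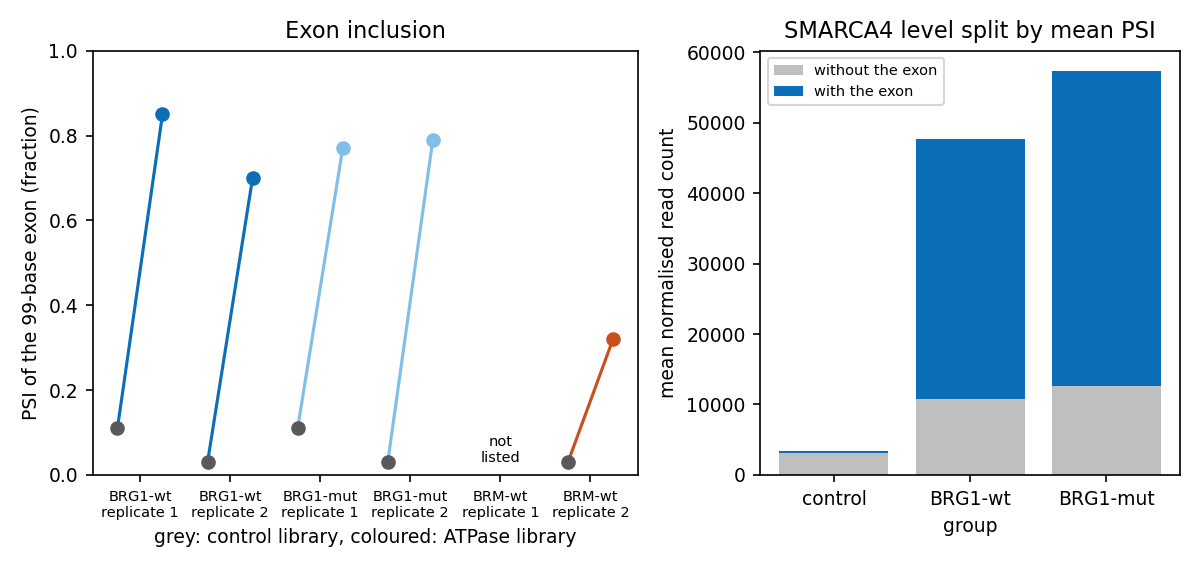
Left, PSI of the 99-base exon 27 of SMARCA4 in each pair of control library (grey) and ATPase library (coloured) in which it was listed, and right, the mean normalised read count of SMARCA4 stacked as the product with the mean PSI (blue, with the exon) and the rest (grey, without). PSI was 0.03 or 0.11 in control and between 0.7 and 0.85 with both BRG1 plasmids, and the blue part was the larger in both BRG1 groups and the smaller in control.

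No other subunit gene of SWI/SNF was called. Of 27 subunit genes, 26 had enough reads to be tested (all but DPF3), and limma called 0 in any of the 4 comparisons with control, with 3 at an unadjusted p under 0.05 for BRG1-wt, 6 for BRG1-mut, 0 for BRM-wt and 0 for BRM-mut. Over all genes tested, 6.37%, 15.5%, 2.41% and 0.374% had an unadjusted p under 0.05 in the same comparisons. The median log2 difference of the list was -0.01, 0.11, -0.04 and -0.08 in that order, against 0.00248, -0.01, -0.02 and -0.02 over all genes. SMARCC1, a scaffold subunit, varied between 13893 and 17042 normalised reads over all libraries, with log2 differences of -0.12, -0.10, -0.02 and 0.08. SMARCB1, a core subunit, lay at 3310 and 2474 in control and between 1734 and 4355 elsewhere, with differences of 0.16, 0.32, -0.06 and -0.27.

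Among the subunits with the lowest p for BRG1-mut were ACTB, which encodes the actin found in the complex, with a log2 difference of 0.77 ± 0.17 (SE), and BCL7C with 1.04 ± 0.26 (SE), both at an adjusted p by limma of 0.321. These were named after their values were seen. GC content is 56.5% for ACTB and 64.3% for BCL7C. Also under an unadjusted p of 0.05 for BRG1-mut were BCL7B (0.51, GC content 52.6%), DPF1 (0.77, 62.6%) and SMARCD3 (0.45, 53.8%). They too were named after their values were seen. ARID2, a subunit of the PBAF form of the complex with a GC content of 40.5%, lay at -0.27 ± 0.10 (SE) for BRG1-mut and -0.29 ± 0.10 (SE) for BRG1-wt, without passing. For BRG1-wt, ACTB lay at 0.47 ± 0.16 (SE) and BICRAL, with a GC content of 43.9%, at -0.35 ± 0.12 (SE), and neither passed. Without control library a, 8 subunit genes were called in BRG1-mut and 1 in BRG1-wt, and in that setting 2841 and 1849 genes were called in all.

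The other ATPases of the SNF2 family, which power the remodellers of other kinds such as ISWI, CHD and INO80, were not called either. All 29 listed genes were tested and 0 were called by limma in any comparison, with 1 at an unadjusted p under 0.05 for BRG1-wt (CHD9, -0.26 ± 0.10, SE) and 0 in the other comparisons, against 6.37% of all genes tested for BRG1-wt and 15.5% for BRG1-mut. Their median log2 differences were -0.08 and -0.17 with wt and mut BRG1, and -0.02 and 0.10 with wt and mut BRM. The list ranged from -0.26 to 0.24 in BRG1-wt and from -0.19 to 0.24 in BRM-mut. In BRG1-mut it reached 1.12, at CHD5, whose control libraries held 645 and 202 normalised reads. No other ATPase gene of the family came near the differences of SMARCA4 and SMARCA2.

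The genes whose pattern over the 10 libraries was most like that of SMARCA4 were PPM1J (Pearson r of log2 values 0.939), TMEM25 (0.912) and ENSG00000266947 (0.91), among 16517 genes with a mean of at least 10. PPM1J, a protein phosphatase gene with a GC content of 61.8%, had 33.9 and 21.8 normalised reads in control, 68.6 and 63.0 in BRG1-wt, 80.1 and 69.6 in BRG1-mut, 17.9 and 54.1 in BRM-wt, and 30.2 and 20.1 in BRM-mut. Its difference of 1.24 ± 0.34 (SE) for BRG1-wt and 1.41 ± 0.33 (SE) for BRG1-mut did not pass (adjusted p by limma 0.408 and 0.321). For SMARCA2 they were PPP1R12A-AS1 (0.874), ENSG00000267197 (0.871) and ACAP2-IT1 (0.863), whose levels stayed at or below 50.2 normalised reads. These correlations describe which genes were nearest over the 10 libraries, which differ in depth and in the level of genes of high GC content, and carry no test.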

How the data were processed

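RNA was from C33A cells, 5 groups with 2 libraries each, 48 h after transfection. The authors mapped reads to GRCh37 with TopHat2 2.0.4, counted them on genes with HTSeq 0.6.1 and ran DESeq2. In the deposited expression tables the base mean, a signal per gene, is the authors' mean over 4 libraries of reads divided by size factors. The deposited splicing tables hold MISO PSI values, each a fraction, for events that the authors listed at a Bayes factor above 10. Fold changes, p-values and Bayes factors of the authors' own comparisons were not used, nor was a second copy of the BRG1-wt table.

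Base means carry 15 significant digits. Genes with 1 read in all gave the size factors, the control libraries being those common to the 4 tables (291 and 263 such genes), and the reads of 63152 genes in 10 libraries were then solved as whole numbers by lattice reduction (100% of genes). Tests used limma 3.58.1 (R 4.3.3) with a trend on log2(normalised count + 1), as planned in case the reads could be solved. They were two-sided, for genes with a mean of at least 10. Benjamini-Hochberg adjustment was over all genes tested, with a threshold of 0.05. DESeq2 was not run again on the solved reads. Comparisons with control used 4 libraries and share the controls, and wt against mut used all 10. An exact permutation test of 2 against 2 libraries cannot go below 0.333. Recovery of reads and the limma step were also tried on data simulated from the recovered reads, with a scatter set in advance and not taken from these libraries.

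The genes, lists and tests were chosen with earlier results of these data known. Named were both genes, SMARCC1, SMARCB1, up to 5 called subunits and 3 called other ATPases per comparison, the 3 nearest coding genes on each side and overlapping genes, and the 3 genes with the highest correlation. 1 of these is not reported here. Gene names, exons and GC content (longest transcript) are from GENCODE v44 lifted to GRCh37, which matched 55139 of 63152 identifiers, and sequences are from GRCh37. Python 3.11.15 was used. Alternatives were pseudocounts of 0.5 and 8, no filter, scaling by library total, voom weights, all 10 libraries in 1 fit, each library left out, another gene length and, added later, subtraction of the median in 50 bins of GC content.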

Additional observations from a re-analysis of the deposited data

How the results depend on the processing

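Direction and call of each member's difference held under most alternatives, except SMARCA2 in BRM-wt against control, which was called under 7 of 11. No paired analysis was possible because the tabulated means carry no replicate numbers. With each library left out in turn, the remaining library of a group being assumed to vary like the others, log2 differences from control ran from 3.54 to 4.19 (SMARCA4, BRG1-wt), 3.78 to 4.47 (SMARCA4, BRG1-mut), -0.37 to 1.04 (SMARCA4, BRM-wt), -0.98 to 0.13 (SMARCA4, BRM-mut), -0.36 to -0.11 (SMARCA2, BRG1-wt), -1.76 to -0.79 (SMARCA2, BRG1-mut), 11.85 to 13.69 (SMARCA2, BRM-wt) and 12.77 to 13.69 (SMARCA2, BRM-mut). SMARCA4 in BRG1-wt against BRG1-mut ran from -0.35 to -0.17, and SMARCA2 in BRM-wt against BRM-mut from -1.38 to 0.46, the latter value without BRM-wt library b. SMARCA2 in BRM-wt became called without the filter (12.77), with all 10 libraries (12.77) and with GC content subtracted (12.77), and SMARCA4 in BRG1-mut with GC content subtracted (3.26), which also turned BRG1-wt against BRG1-mut to 0.25. With voom weights SMARCA2 in BRM-mut (13.28) was no longer called.

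Counts of called genes depended more on the libraries. For BRG1-wt, 111 became 34 with library totals, 71 with voom weights, 43 with all 10 libraries, 257 with GC content subtracted and 56 to 1849 with a library left out, the highest without control a, with 303 without control b and 56 without BRG1-wt library b. For BRG1-mut, 0 became 1 with GC content subtracted and 0 to 2841 with a library left out, the highest without control a. For BRM-wt, 0 became 1 without the filter, 48 with all 10 libraries, 6 with GC content subtracted and 1 to 153 with a library left out, the highest without BRM-wt library b. For BRM-mut, 1 became 0 with voom weights and stayed 1 with any library left out. Subunit genes called ran from 0 to 1 (BRG1-wt) and 0 to 8 (BRG1-mut), and other ATPase genes from 0 to 1 and 0 to 2, with a library left out. The cause was not tested. The change in PSI of exon 27 ran from 0.67 to 0.74 (BRG1-wt) and 0.66 to 0.76 (BRG1-mut) in single replicates. The ratio of SMARCA4 to SMARCA2 per kb in control was 303 with annotated exons and 302 with the longest transcript. The longest transcripts, 5777 and 7061 bases, stand in nearly the same ratio as the annotated exons, so this alternative could change little. The coding sequences, 4941 and 4770 bases, stand in another ratio and were not used for this value. Assigning exons by gene identifier was not run, as the splicing tables hold none.

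Depth limits SMARCA2 outside the BRM libraries, where 3 to 14 reads cannot resolve differences of less than about their counting intervals, and 2 libraries per group limit every test.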
